A study of Homo sapiens with 4 samples.

Results

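Notch signalling passes a message between touching cells, and its genes were followed here in FaDu cells, an established line of squamous carcinoma cells from the human hypopharynx. The genes were 10 chosen members of the pathway: the receptors NOTCH1, NOTCH2 and NOTCH3, the ligands JAG1, JAG2 and DLL1, and the targets HES1, HEY1, HES4 and NRARP. They were taken by symbol from a table of 62077 rows, with the locus required to lie on a chromosome, which left out 1 further NOTCH2 row on an assembly patch. All 10 were found on a single row each. RNA-Seq was done on 4 libraries, 1 per group. Cells carrying a scrambled control or a lentiviral TET1 knockdown (TET1-si) were kept in normoxia (N-scr and N-si) or for 19 h at 1% oxygen with 5% CO2 and 94% nitrogen (H-scr and H-si). The study's methods describe infection with a short hairpin vector against TET1, with 1 hairpin sequence given for that gene, and use of the cells within days of infection. TET1 is a dioxygenase that oxidises 5-methylcytosine in DNA. As no group had a replicate, every difference is one between single libraries, no test was made and no p-value is given.

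A Notch receptor is cut by furin on its way to the cell surface. When a Jagged or Delta ligand on a neighbouring cell pulls on it, ADAM10 or ADAM17 and then γ-secretase cut it again, and the freed intracellular domain enters the nucleus. There it joins the DNA-binding protein RBPJ and a Mastermind coactivator to switch on genes of the HES and HEY families, which encode transcriptional repressors, and NRARP, a small ankyrin protein that limits the pathway. In stratified squamous epithelium, Notch signalling is known for driving differentiation of the cells that leave the basal layer, and NOTCH1 is often inactivated in squamous carcinomas of the head and neck.

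Levels are FPKM, read fragments scaled to the length of the gene and to the depth of the library, as the authors deposited them, so that genes of different length can be compared. Approximate reads behind each level were worked back from the recovered depth of 22500000 to 24600000 reads per library, and gave 95% counting intervals. These cover counting error alone and not the spread between cultures. A change is a difference of log2(FPKM + 0.1), and was counted when it reached 1 (2-fold) in a gene with a mean of at least 1 FPKM over the 4 libraries. Of the 10 genes, 9 passed that minimum, and HEY1 did not. TET1 itself had 0.129 FPKM in normoxic and 0.331 in hypoxic scrambled cells, and 0.0493 in normoxic and 0.122 in hypoxic TET1-si cells. It was thus lower after TET1-si within each oxygen state. TET1 was below the minimum, on approximately 28, 77, 11 and 26 reads in that order. The hypoxia target CA9, which encodes a carbonic anhydrase, had 0.180 FPKM in normoxic and 7.82 in hypoxic scrambled cells, was listed at 0 in normoxic TET1-si cells and had 0.506 in hypoxic ones. VEGFA, a hypoxia-induced growth factor of blood vessels, had 80.2 FPKM in normoxic and 172.2 in hypoxic scrambled cells, and 77.9 in normoxic and 136.0 in hypoxic TET1-si cells. The 7 epithelial and squamous markers KRT5, KRT8, KRT18, CDH1, TP63, SFN and EPCAM were all above 42 FPKM in every library. Their summed level was 6147 FPKM in normoxic and 7632 in hypoxic scrambled cells, and 1989 in normoxic and 2870 in hypoxic TET1-si cells, lower in both TET1-si libraries. Of these markers CDH1 and EPCAM were higher, and KRT5, KRT8, KRT18 and SFN lower, after TET1-si in both oxygen states. TP63 changed by -0.27 under normoxia and was nearly level under hypoxia, at -0.04 on the log2 scale. Of the markers of other cells, PTPRC of leukocytes was at most 0.0101 FPKM, while COL1A1 of fibroblasts was 5.29 FPKM in normoxic and 28.6 in hypoxic scrambled cells, and 14.0 in normoxic and 37.0 in hypoxic TET1-si cells. These markers moved with the groups compared below, and their part in the results was not tested. In bulk RNA, fewer cells of a type and less RNA per cell cannot be told apart.

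Among the receptors, NOTCH1 and NOTCH3 stood high in a single library, H-si, while NOTCH2 was lower in both TET1-si libraries. NOTCH1 (ENSG00000148400, chromosome 9, 139388896 to 139440314, minus strand, hg19) had 9.77 FPKM in normoxic and 12.7 in hypoxic scrambled cells, and 14.6 in normoxic and 50.8 in hypoxic TET1-si cells. H-si was thus far above the other three libraries, of which N-si was the highest. NOTCH1 was 4.0-fold higher in H-si than in H-scr, a log2 change of 1.99 with a counting interval from 1.94 to 2.06, on approximately 10698 and 2927 reads. Under normoxia the TET1-si library was 1.5-fold higher. The hypoxic level was 1.30 times the normoxic one with scrambled control and 3.48 times with TET1-si, and the difference of the log2 responses was 1.41.

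NOTCH3 (ENSG00000074181, chromosome 19, 15270444 to 15311792, minus strand) repeated this shape at a lower level. It had 3.14 FPKM in normoxic and 3.82 in hypoxic scrambled cells, and 5.66 in normoxic and 14.1 in hypoxic TET1-si cells. The receptor was 3.68-fold higher in H-si than in H-scr, a log2 change of 1.85 with a counting interval from 1.77 to 2.0. It was 1.80-fold higher after TET1-si under normoxia, 2.49-fold higher in hypoxia in TET1-si cells and 1.22-fold higher in hypoxia in scrambled cells. Both genes were at least 2-fold above each of the other 3 libraries in H-si. That held for 690 of 15057 genes (4.58%), and no other member met it in any library. Centred on their own means, the log2 levels of NOTCH1 and NOTCH3 lay 0.361 apart (Euclidean distance over the 4 libraries), the closest pair among the 9 genes, and those of NOTCH1 and NOTCH2 lay 2.22 apart, the farthest.

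NOTCH2 (ENSG00000134250, chromosome 1, 120454176 to 120612240, minus strand) was the most abundant receptor in 3 of the 4 libraries. It had 33.7 FPKM in normoxic and 36.1 in hypoxic scrambled cells, and 19.9 in normoxic and 24.4 in hypoxic TET1-si cells. It was lower after TET1-si in both oxygen states, with log2 changes of -0.56 under hypoxia and -0.76 under normoxia, short of 2-fold. Hypoxia moved NOTCH2 little, by 0.10 (scrambled) and 0.29 (TET1-si) on the log2 scale. NOTCH2NL, a partial copy of NOTCH2 in which near-identical sequence can share reads, had 12.6 FPKM in normoxic and 10.9 in hypoxic scrambled cells, and 14.3 in normoxic and 14.3 in hypoxic TET1-si cells. Reads shared between NOTCH2 and NOTCH2NL were not estimated, so the level of NOTCH2 is uncertain by an amount not known here.

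The make-up of the receptor pool therefore differed between libraries. Of the summed receptor FPKM, NOTCH2 supplied 72.3% in normoxic and 68.6% in hypoxic scrambled cells, but 49.6% and 27.3% in TET1-si cells. In the same order NOTCH1 supplied 21.0%, 24.2%, 36.4% and 56.9%, and was the leading receptor in H-si. The sum itself was 46.6 FPKM in normoxic and 52.6 in hypoxic scrambled cells, and 40.2 in normoxic and 89.3 in hypoxic TET1-si cells. NOTCH4, the remaining human receptor, did not exceed 0.258 FPKM in any library.

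**Figure D1:**
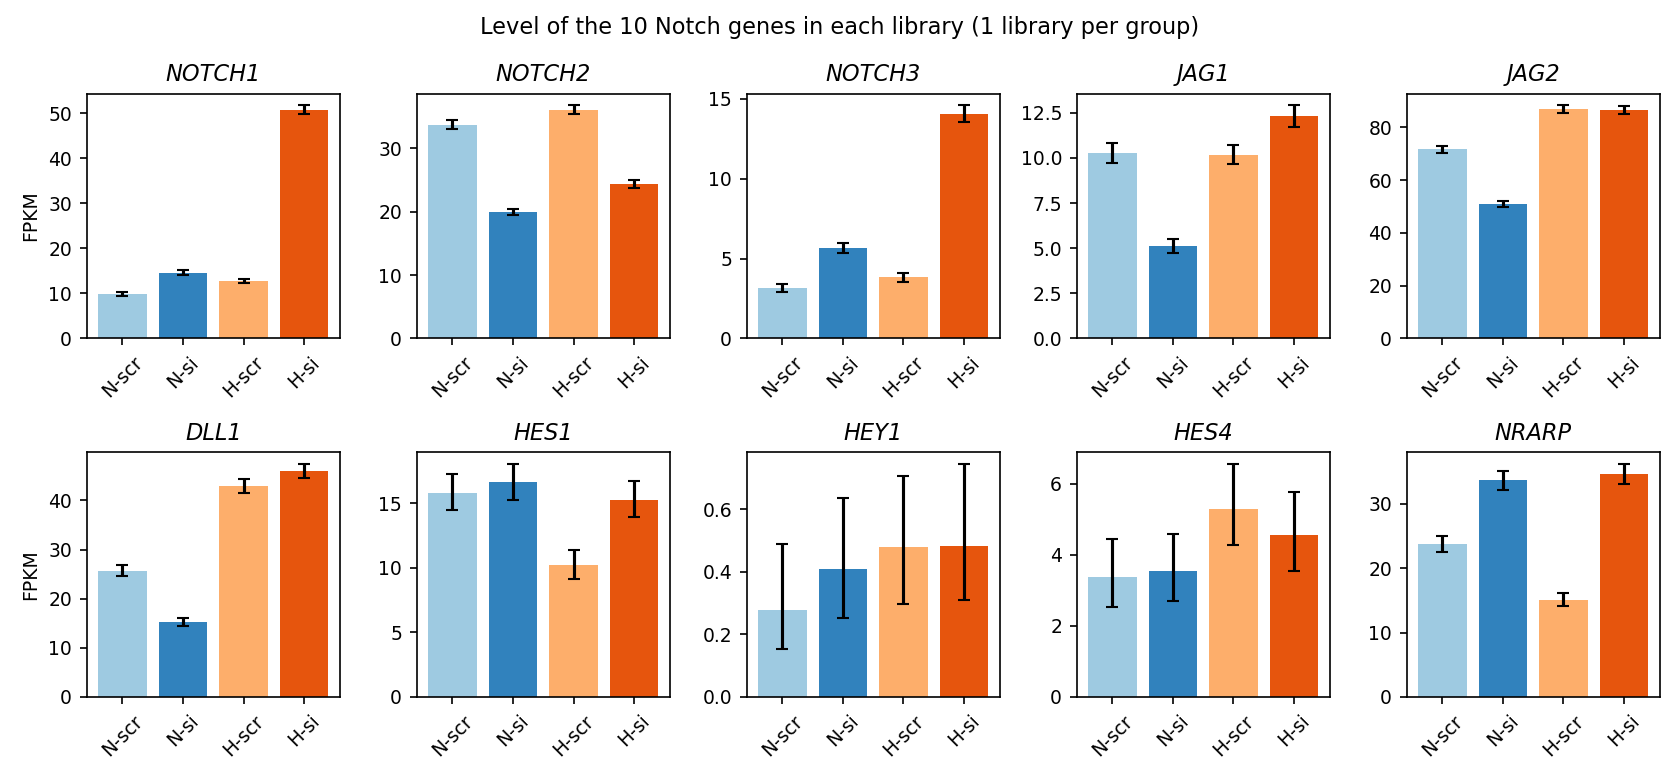
Level of each of the 10 genes in FPKM (vertical axes, each from 0) in the 4 libraries; bars are single libraries and whiskers are 95% counting intervals of the approximate reads. NOTCH1 and NOTCH3 stand high in H-si alone, at 50.8 and 14.1 FPKM, and NRARP is lowest in H-scr, at 15.1.

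Of the ligands, JAG1 and DLL1 were lowest in N-si, and JAG2 was as well. JAG2 (ENSG00000184916, chromosome 14, 105607318 to 105635161, minus strand) was the most abundant of the 10 genes in every library, with 71.6 FPKM in normoxic and 86.9 in hypoxic scrambled cells, and 50.9 in normoxic and 86.6 in hypoxic TET1-si cells. The hypoxia libraries were level with each other, with a counting interval of the TET1-si response from -0.04 to 0.03, while N-si was below N-scr by 0.49 on the log2 scale. DLL1 (ENSG00000198719, chromosome 6, 170591294 to 170599561, minus strand), the Delta-type ligand, had 25.7 FPKM in normoxic and 43.0 in hypoxic scrambled cells, and 15.3 in normoxic and 46.0 in hypoxic TET1-si cells. Hypoxia went with a higher level, 1.67-fold with scrambled control and 3.0-fold with TET1-si. The TET1-si response of DLL1 was -0.74 under normoxia and 0.10 under hypoxia, and the latter turned to -0.02 with median-of-ratios scaling.

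JAG1 (ENSG00000101384, chromosome 20, 10618332 to 10654608, minus strand) had 10.3 FPKM in normoxic and 10.2 in hypoxic scrambled cells, and 5.11 in normoxic and 12.3 in hypoxic TET1-si cells. N-si stood apart from the other three, which were within a few FPKM of each other. The TET1-si response under normoxia was -0.996 on the log2 scale with the pseudocount, just inside the 2-fold limit. Without the pseudocount JAG1 was 2.01-fold lower, just past it, with a counting interval of the log2 ratio from -1.14 to -0.88. Under hypoxia it was 0.27. JAG1 did not differ between the scrambled libraries beyond counting error (interval -0.12 to 0.09), and was 2.41-fold higher in H-si than in N-si. The difference of its hypoxia responses was 1.27. As a sum, the 3 ligands came to 107.6 FPKM in normoxic and 140.0 in hypoxic scrambled cells, and 71.3 in normoxic and 144.9 in hypoxic TET1-si cells. JAG2 supplied 59.8% to 71.4% of that sum. Among ligands that are not members, DLL4 and DLL3 stayed below 0.4 FPKM.

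**Figure D2:**
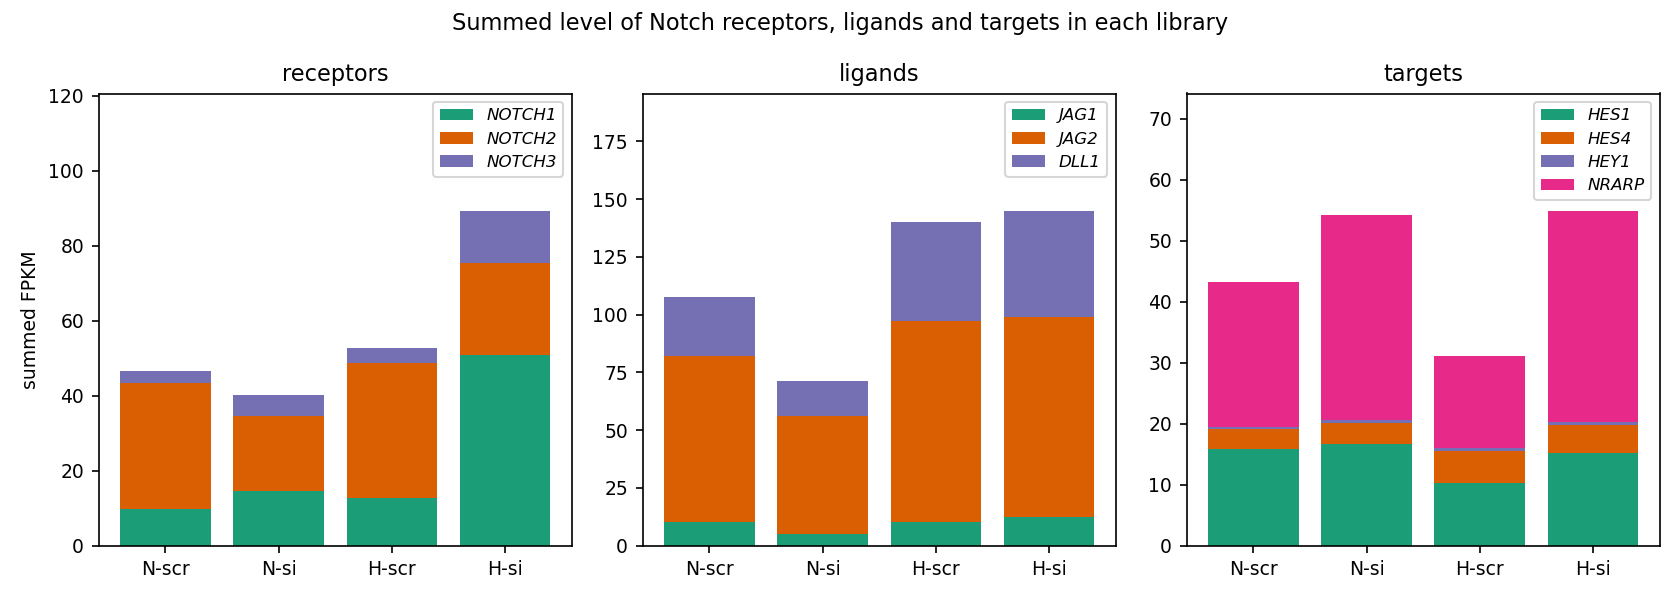
Summed FPKM (vertical axes, from 0) of the receptors, ligands and targets in each library, stacked by gene. The receptor bar is tallest in H-si, at 89.3 FPKM, where NOTCH1 makes up 56.9% of it, and the target bar is shortest in H-scr, at 31.1 FPKM.

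The targets are genes that the pathway can switch on, and activity of the pathway itself was not measured. The promoters of HES1 and HES4 are shown because both carry the RBPJ core TGGGAA shortly before the start of transcription. The bases are from RefSeq on GRCh38.p14, written 5′ to 3′ in the direction of the gene, with the core in capitals. HES1 is chr3:194135898-194136147, plus strand, the 250 bases before the start. HES4 is chr1:1000158-1000347, minus strand, from base 250 to base 61 before the start.
HES1: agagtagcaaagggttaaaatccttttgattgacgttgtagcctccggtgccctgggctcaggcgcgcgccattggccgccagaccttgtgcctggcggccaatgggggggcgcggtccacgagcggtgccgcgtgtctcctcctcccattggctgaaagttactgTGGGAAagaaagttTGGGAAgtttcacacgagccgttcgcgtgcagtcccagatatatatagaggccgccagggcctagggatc
HES4: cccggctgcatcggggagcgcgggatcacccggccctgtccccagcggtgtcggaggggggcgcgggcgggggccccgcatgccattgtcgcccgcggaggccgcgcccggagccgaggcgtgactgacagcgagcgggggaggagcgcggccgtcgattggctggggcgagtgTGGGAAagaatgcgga

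HES1 holds the core 2 times, at bases 84 to 79 and 70 to 65 before the start, and HES4 holds it once, at bases 76 to 71. The longest run that both stretches share is TGTGGGAAAGAA, 12 bases around the core. Both strands of the 250 bases before the start were searched in 8 of the 10 genes, since the promoter table had no entry for DLL1 and HEY1. The core was found in HES1 and HES4 among these 8 and in 20.8% of all 35116 promoters. The longer form GTGGGAA, which contains the core, was found in the same pair and in 5.43% of all promoters. The letters GCGTG, a core of hypoxia response elements, were present in all of the 8 but NOTCH2, and in 32.2% of all promoters. The other such core, ACGTG, was present in JAG1 among the 8 and in 18.5% of all promoters. The N box CACNAG, which HES proteins can bind, had 3 matches in HES1 and 1 in NOTCH3 and was present in 32.0% of all promoters. The E box CACGTG, which contains ACGTG, was in none of the 8 and in 6.34% of all promoters. The set of all promoters was not matched to these 8 in base content, on which such shares depend. The stretches printed above held 59.2% (HES1) and 76.3% (HES4) G and C. A match is a description of the letters and not of a bound site.

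HES1 (ENSG00000114315, chromosome 3, 193853934 to 193856521, plus strand, hg19), a repressor and the best known Notch target, had 15.8 FPKM in normoxic and 10.2 in hypoxic scrambled cells, and 16.6 in normoxic and 15.3 in hypoxic TET1-si cells. H-scr was the low library and the other three were close together. HES1 was lower in hypoxia in scrambled cells by 0.63 on the log2 scale, with a counting interval from -0.83 to -0.43. In TET1-si cells its change was -0.12, with an interval from -0.30 to 0.06, and rescaling to TPM turned it to 0.01. HES1 was 1.5-fold higher in H-si than in H-scr and 1.05-fold higher in N-si than in N-scr, a difference that was not detectable at this depth.

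NRARP (ENSG00000198435, chromosome 9, 140194083 to 140196703, minus strand) followed HES1 at a higher level. It had 23.7 FPKM in normoxic and 15.1 in hypoxic scrambled cells, and 33.6 in normoxic and 34.6 in hypoxic TET1-si cells. It was higher after TET1-si in both oxygen states, and H-scr was the lowest library. NRARP was 2.29-fold higher in H-si than in H-scr, a log2 change of 1.19 with a counting interval from 1.08 to 1.31, and 1.42-fold higher in N-si than in N-scr. In hypoxia it was lower by 0.65 in scrambled cells and level in TET1-si cells, at 0.04. The profiles of HES1 and NRARP lay 0.537 apart, nearer to each other than either was to any other of the 9 genes. The 4 targets together came to 43.2 FPKM in normoxic and 31.1 in hypoxic scrambled cells, and 54.2 in normoxic and 54.9 in hypoxic TET1-si cells, and NRARP supplied 48.6% to 63.0% of that sum.

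HES4 and HEY1 were low and gave few reads. HES4 (ENSG00000188290, chromosome 1, 934342 to 935552, minus strand) had 3.36 FPKM in normoxic and 5.31 in hypoxic scrambled cells, and 3.55 in normoxic and 4.56 in hypoxic TET1-si cells, on approximately 52 to 88 reads. H-scr was its highest library, where HES1 and NRARP were lowest. The hypoxia response in scrambled cells was 0.64, with a counting interval from 0.14 to 1.18. The other 3 intervals held 0, and the TET1-si response under normoxia, 0.08, changed sign under median-of-ratios and upper-quartile scaling, as did that of HES1. HEY1 (ENSG00000164683, chromosome 8, 80676245 to 80680098, minus strand) had 0.279 FPKM in normoxic and 0.479 in hypoxic scrambled cells, and 0.411 in normoxic and 0.484 in hypoxic TET1-si cells on 13 to 23 reads. No difference in HEY1 was detectable at this depth. In order of mean level, the 10 genes ran JAG2, DLL1, NOTCH2, NRARP, NOTCH1, HES1, JAG1, NOTCH3, HES4 and HEY1. Over the 4 libraries the ranges of neighbours in this order overlapped from DLL1 down to HES4, while JAG2 lay above DLL1 and HEY1 below HES4 without overlap.

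**Figure D3:**
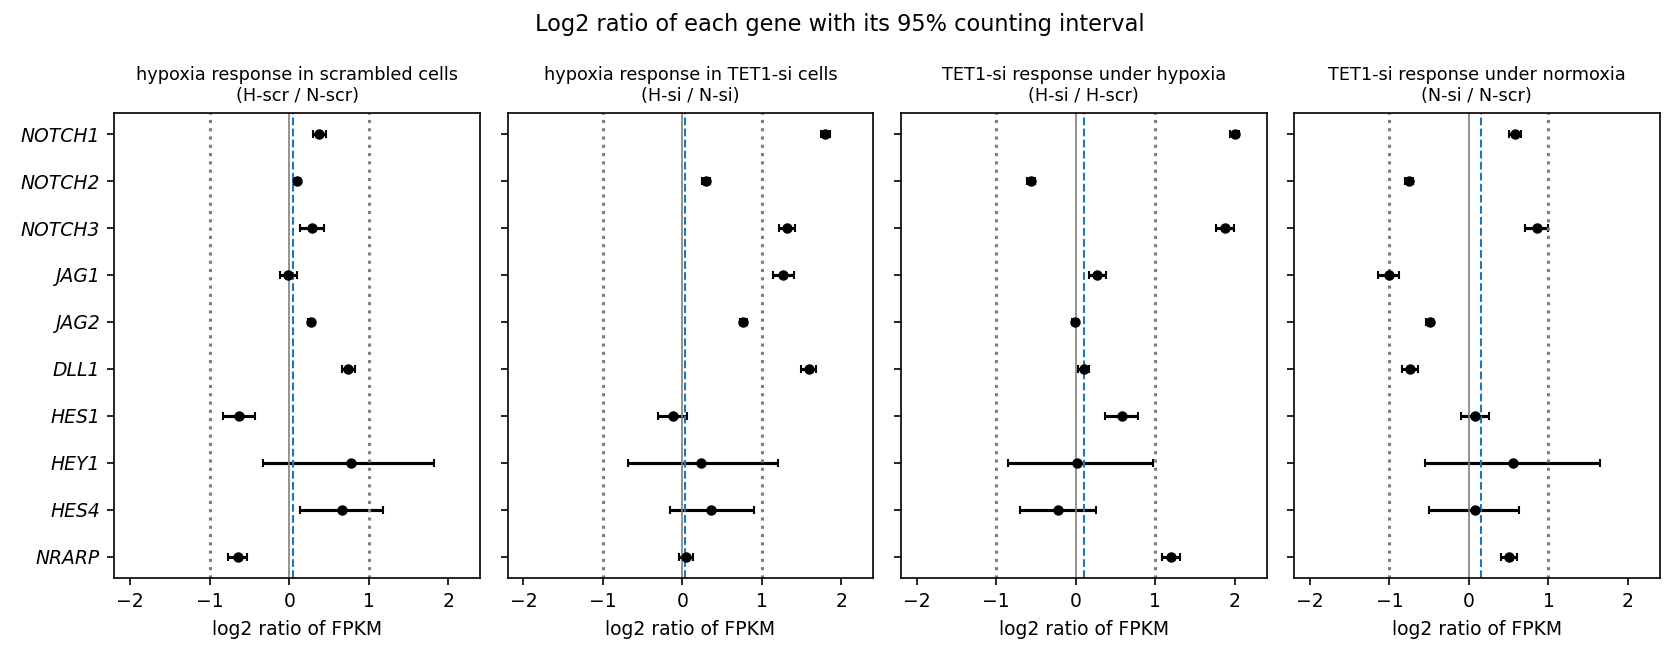
Log2 ratio of FPKM without a pseudocount (horizontal axes) for each gene in the 4 comparisons, with 95% counting intervals; dotted lines mark 2-fold and the dashed blue line the median change of all 15057 genes. NOTCH1, NOTCH3, JAG1 and DLL1 lie past 2-fold for hypoxia in TET1-si cells, and NOTCH1, NOTCH3 and NRARP for TET1-si under hypoxia. Without the pseudocount JAG1 also lies just past 2-fold lower for TET1-si under normoxia.

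The first comparison asked how the genes responded to hypoxia with TET1 in place (H-scr against N-scr). None of the 9 was 2-fold higher, a change seen in 12.9% of all genes, and none was 2-fold lower, against 4.53%. Their median change was 0.28 and that of all genes 0.05. DLL1 was the highest, at 0.74, and NRARP the lowest, at -0.65. The receptors and DLL1, JAG2 and HES4 were higher, and HES1 and NRARP lower. JAG1 was at -0.01, which upper-quartile and TPM scaling turned positive.

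The second comparison set H-si against N-si, the same response with TET1 knocked down. NOTCH1, NOTCH3, JAG1 and DLL1, 4 of the 9, were at least 2-fold higher, against 12.5% of all genes, and none was 2-fold lower, against 8.66%. The median of the 9 was 0.77 and that of all genes 0.03. All 3 ligands and all 3 receptors were above 0, from 0.29 for NOTCH2 to 1.79 for NOTCH1. The targets that passed the minimum ran from -0.12 for HES1 to 0.35 for HES4. The difference of hypoxia responses, TET1-si less scrambled, was positive in 8 of the 9, with HES4 the exception at -0.29. It was at least 1 in NOTCH1, NOTCH3 and JAG1, against 4.87% of all genes, and -1 or lower in none, against 7.86%. With log2(FPKM + 1) the first count was 2, as NOTCH3 was no longer past the limit. Its median was 0.69 in the 9 and -0.06 in all genes.

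The third comparison set H-si against H-scr, the TET1-si response under hypoxia, and shares H-si with the second. NOTCH1, NOTCH3 and NRARP, 3 of the 9, were at least 2-fold higher, against 12.0% of all genes, and none was 2-fold lower, against 8.35%. The median of the 9 was 0.27 and that of all genes 0.10. Under normoxia (N-si against N-scr) no member was 2-fold higher, against 12.1% of all genes, or 2-fold lower, against 5.56%. There the 9 ran from -0.996 for JAG1 to 0.83 for NOTCH3, with a median of 0.07 against 0.15 for all genes. Without the pseudocount JAG1 was 2.01-fold lower under normoxia. NOTCH1, NOTCH3 and NRARP were higher and NOTCH2 lower after TET1-si in both oxygen states, with the same direction under all 3 scalings. Median-of-ratios scaling brought the median of all genes from 0.10 to -0.0078 under hypoxia and from 0.15 to -0.0043 under normoxia. TPM brought that of the hypoxia responses to 0.16, from 0.05 in scrambled and 0.03 in TET1-si cells. The study's criteria for genes regulated by TET1 under hypoxia ask that the hypoxic scrambled level exceed 2 times that of hypoxic TET1-si cells and also exceed the normoxic level, which must not be below that of normoxic TET1-si cells. None of the 9 met them, against 3.84% of all genes.

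Each gene was then set beside its neighbours on the chromosome, up to 25 protein-coding genes on either side with a mean of at least 1 FPKM. NOTCH1 was above most of its surroundings. For TET1-si under hypoxia its 50 neighbours had a median of 0.03, and 47 of them lay below the 1.99 of NOTCH1. Of these 50, 12 were themselves at least 2-fold higher, a larger share than the 12.0% among all genes. For hypoxia in TET1-si cells, 49 of the 50 lay below NOTCH1. Of the 50, 8 were at least 2-fold higher, also a larger share than the 12.5% among all genes. NOTCH3 likewise was above 49 of its 50 neighbours in both comparisons, whose medians were 0.22 and -0.17. Of these neighbours 2 and 3 were at least 2-fold higher, in the same order, smaller shares than the 12.0% and 12.5% among all genes. JAG1 was above all 50 of its neighbours for hypoxia in TET1-si cells, and above only 1 of them for TET1-si under normoxia. DLL1, near the end of its chromosome, was above all 29 neighbours for hypoxia in TET1-si cells.

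NRARP lies 753.8 kb from NOTCH1 on the same arm of chromosome 9. The 35 protein-coding genes between them had a median of 0.03 for TET1-si under hypoxia, and 20 of the 35 were above 0. NRARP was above 29 of its 35 neighbours, whose median was 0.19. Of these 35 neighbours 7 were at least 2-fold higher, a larger share than the 12.0% among all genes. JAG2 differed in the median of its neighbours. After TET1-si its 32 neighbours had a median of -0.50 under hypoxia, where JAG2 was level, and of -0.40 under normoxia, where JAG2 had -0.49. The windows of NOTCH1 and NRARP overlap, so their neighbours are partly the same genes.

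**Figure D4:**
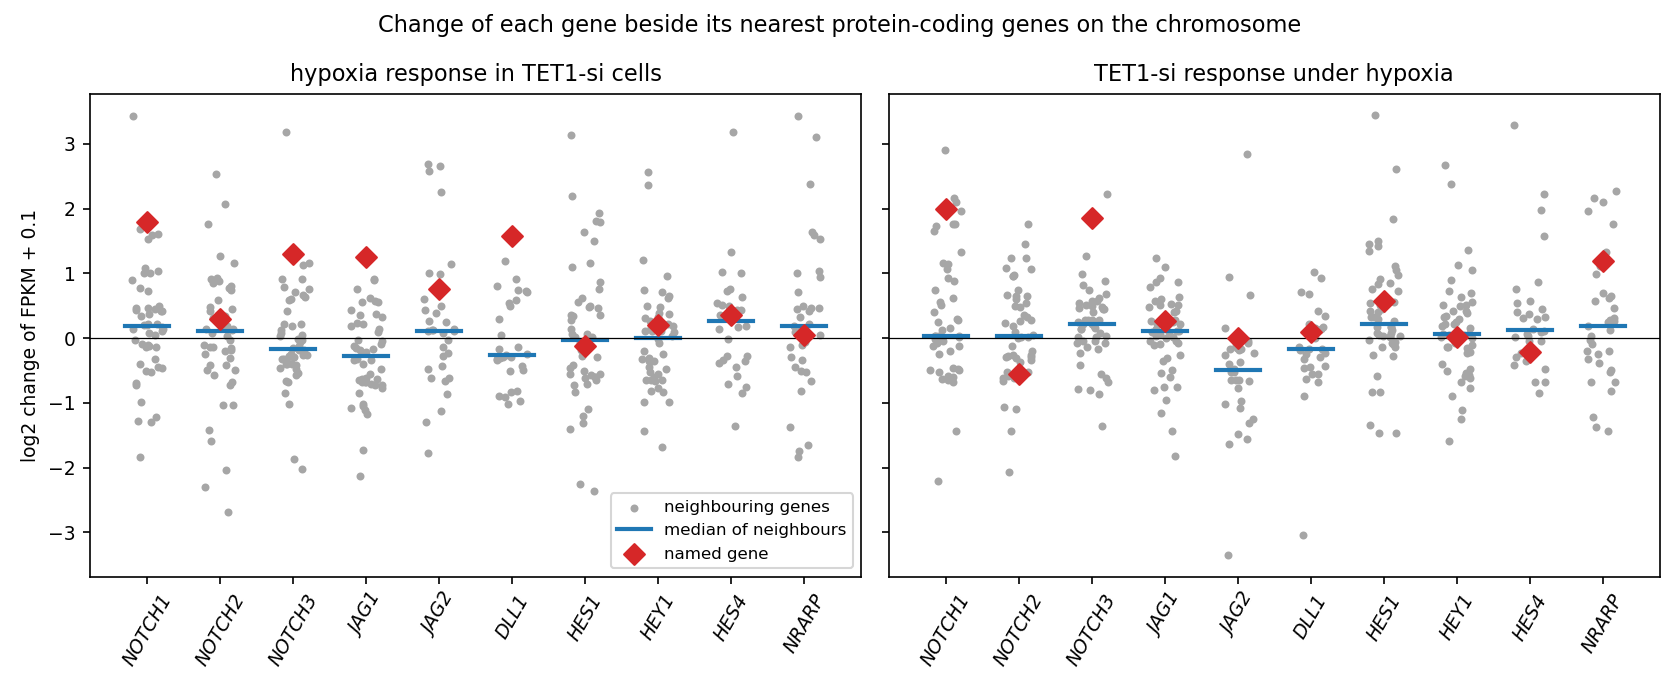
Log2 change of FPKM + 0.1 (vertical axis) of each gene (red diamonds) beside its nearest protein-coding genes on the chromosome (grey points, 29 to 50 per gene; blue bars, their medians), for hypoxia in TET1-si cells (left) and TET1-si under hypoxia (right). NOTCH1 and NOTCH3 lie above nearly all of their neighbours in both panels, and DLL1 and JAG1 above all of theirs in the left panel.

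The rest of the pathway was followed in 7 lists of 70 genes, of which 55 passed the minimum. For TET1-si under hypoxia 7 were at least 2-fold higher and 7 lower, both 12.7%, against 12.0% and 8.35% of all genes. Under normoxia 7 were higher (12.7%) and 4 lower (7.27%), against 12.1% and 5.56%. Both counts of higher genes include HES2, whose mean passed the minimum only through its TET1-si libraries. The higher genes under hypoxia also include MAML2, which passed through H-si. Both counts of lower genes include FHL1 and DNER, which passed through the scrambled libraries, where they were high. For hypoxia 8 were higher (14.5%) and none lower with scrambled control, against 12.9% and 4.53%. With TET1-si 9 were higher (16.4%) and 2 lower (3.64%), against 12.5% and 8.66%. MAML2 is among the higher genes in both of these hypoxia comparisons. With TET1-si HES2 is also among the higher genes, and FHL1 is among the lower ones. The shares of higher genes were near those of all genes. Of the 9 genes for furin, ADAM10, ADAM17 and the γ-secretase subunits, which cut the receptor, none changed 2-fold after TET1-si. The exception in hypoxia was the γ-secretase subunit APH1B, at 1.58 FPKM in normoxic and 3.87 in hypoxic scrambled cells, and 1.05 in normoxic and 3.07 in hypoxic TET1-si cells, higher in hypoxia in both knockdown states. NCSTN, which encodes the subunit nicastrin, led the list with 101.0 to 169.4 FPKM.

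The Fringe enzymes, which add sugars to the receptor and so tune its choice of ligand, went in different directions. MFNG had 54.5 FPKM in normoxic and 63.5 in hypoxic scrambled cells, and 16.7 in normoxic and 15.6 in hypoxic TET1-si cells, so that both TET1-si libraries were lower, by 2.02 under hypoxia and 1.70 under normoxia on the log2 scale. RFNG had 46.7 FPKM in normoxic and 50.7 in hypoxic scrambled cells, and 95.3 in normoxic and 135.5 in hypoxic TET1-si cells and was higher in both, by 1.42 and 1.03. LFNG, at 5.59 FPKM in normoxic and 8.43 in hypoxic scrambled cells, and 3.73 in normoxic and 8.64 in hypoxic TET1-si cells, was 2-fold higher in hypoxia in TET1-si cells, by 1.19. The xylosyltransferase gene GXYLT1 was lower in H-si than in H-scr, with a log2 change of -1.08. The other 4 genes of this list of 8 changed less than 2-fold in the 4 comparisons.

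In the nucleus, RBPJ itself had 11.5 FPKM in normoxic and 14.4 in hypoxic scrambled cells, and 9.66 in normoxic and 10.9 in hypoxic TET1-si cells. It was lower after TET1-si in both oxygen states, with log2 changes of -0.39 under hypoxia and -0.25 under normoxia, short of 2-fold. Of the 7 genes of the activation complex above the minimum, KAT2B and MAML2 changed 2-fold. KAT2B, a histone acetyltransferase, had 1.94 FPKM in normoxic and 4.50 in hypoxic scrambled cells, and 10.9 in normoxic and 22.6 in hypoxic TET1-si cells, with TET1-si responses of 2.30 and 2.43 under hypoxia and normoxia and hypoxia responses of 1.17 and 1.05 in scrambled and TET1-si cells. MAML2, a Mastermind coactivator, had 0.360 FPKM in normoxic and 1.06 in hypoxic scrambled cells, and 0.690 in normoxic and 3.39 in hypoxic TET1-si cells and was highest in H-si, as NOTCH1 and NOTCH3 were. Its hypoxia responses were 1.33 (scrambled) and 2.14 (TET1-si), and its TET1-si response under hypoxia was 1.59. MAML2 passed the minimum through H-si, as its other levels were at most 1.06 FPKM. SNW1 was the most abundant of the list, with 150.8 to 256.6 FPKM.

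Among 13 corepressor genes above the minimum, HDAC1, the most abundant, kept between 150.6 and 168.3 FPKM. FHL1, a LIM protein that can bind RBPJ, had 5.10 FPKM in normoxic and 6.09 in hypoxic scrambled cells, and 0.612 in normoxic and 0.142 in hypoxic TET1-si cells. These levels rest on approximately 241, 311, 31 and 7 reads in that order, and its mean passed the minimum through the scrambled libraries. Its TET1-si response of -4.68 under hypoxia was the lowest of all 55 genes. CIR1 was higher in both TET1-si libraries, by 1.69 and 1.66, and KDM5A was higher by 1.13 under hypoxia. TLE2, of the Groucho family that HES proteins recruit, had 0.384 FPKM in normoxic and 1.70 in hypoxic scrambled cells, and 3.02 in normoxic and 3.79 in hypoxic TET1-si cells. It was thus lowest in N-scr, on approximately 23 reads. The Deltex genes DTX2, DTX3 and DTX4, whose products act on Notch in the endosome, were 2-fold higher in hypoxia in at least 1 knockdown state. DTX3 had 33.3 FPKM in normoxic and 75.7 in hypoxic scrambled cells, and 13.8 in normoxic and 32.2 in hypoxic TET1-si cells, higher in hypoxia in both knockdown states and lower after TET1-si in both oxygen states. DTX4 was higher in hypoxia by 1.68 (scrambled) and 1.93 (TET1-si). DTX2 was highest in H-scr, at 43.7 FPKM, and the ubiquitin ligase gene MIB2 was highest in H-si, at 40.2 FPKM. ITCH, the most abundant of that list, kept between 82.2 and 136.0 FPKM.

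Of the further members of the HES and HEY families 2 passed the minimum, and of the further ligands and receptors 2. HES2 had 0.129 FPKM in normoxic and 0.201 in hypoxic scrambled cells, and 1.14 in normoxic and 3.08 in hypoxic TET1-si cells. It was higher in both TET1-si libraries, by 2.44 under normoxia and 3.40 under hypoxia, on approximately 12 and 20 scrambled reads in normoxia and hypoxia and 113 and 281 TET1-si reads. Its mean of 1.14 FPKM passed the minimum only through the TET1-si libraries, the group in which it was high. HES6 had 1.11 FPKM in normoxic and 4.97 in hypoxic scrambled cells, and 2.38 in normoxic and 2.39 in hypoxic TET1-si cells, on approximately 29, 141, 67 and 62 reads in that order. Its TET1-si responses were opposite, 1.03 under normoxia and -1.03 under hypoxia. Of the unusual ligands, DLK2 had 11.0 FPKM in normoxic and 14.4 in hypoxic scrambled cells, and 12.0 in normoxic and 28.9 in hypoxic TET1-si cells and was 2-fold higher in hypoxia in TET1-si cells, by 1.26. DNER had 1.95 FPKM in normoxic and 1.74 in hypoxic scrambled cells, and 0.609 in normoxic and 0.676 in hypoxic TET1-si cells, with log2 changes of -1.25 under hypoxia and -1.53 under normoxia. The mean of DNER passed the minimum through the scrambled libraries, where it was high.

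**Figure D5:**
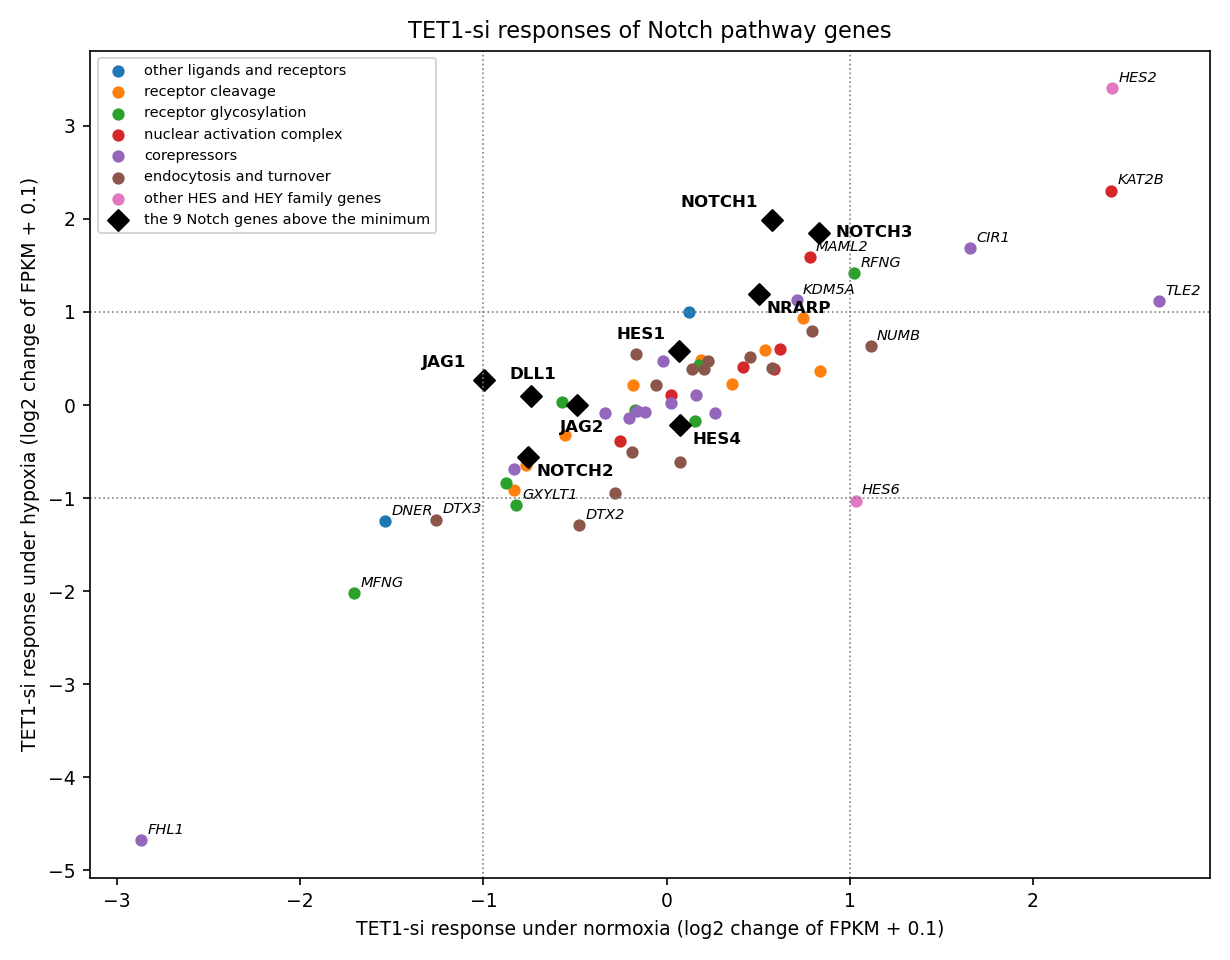
TET1-si response under normoxia (horizontal axis) against that under hypoxia (vertical axis), both as log2 change of FPKM + 0.1, for the 9 Notch genes above the minimum (black diamonds) and 55 further pathway genes coloured by list; dotted lines mark 2-fold. NOTCH1, NOTCH3 and NRARP lie above the upper dotted line, and FHL1 is the lowest point, at -4.68 under hypoxia, on approximately 7 reads in H-si.

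NOTCH1 had the widest range of the 9, 2.37 on the log2 scale. Of 9464 other protein-coding genes with a mean of at least 5 FPKM, the 3 whose centred log2 levels lay nearest to those of NOTCH1 over the 4 libraries were RAPGEF3 (distance 0.233), C8orf42 (0.349) and PAPLN (0.353). RAPGEF3, which encodes an exchange factor activated by cyclic AMP, had 7.70 FPKM in normoxic and 10.4 in hypoxic scrambled cells, and 13.7 in normoxic and 48.4 in hypoxic TET1-si cells. NOTCH3, at 0.361, was close behind. An annotated antisense RNA that overlaps NOTCH1 (ENSG00000227512) was highest in H-si, at 0.614 FPKM, against 0.0669 and 0.125 in the normoxic N-scr and N-si and a listed 0 in H-scr. The libraries were not stated to keep strand, so its reads and those of NOTCH1 cannot be told apart. JAG1 and NRARP are also overlapped by annotated antisense RNAs, which had no level here, and are uncertain in the same way. JAG2 is overlapped by an RNA on its own strand (ENSG00000257622), for which keeping strand would not help. That RNA was listed at 1.19 FPKM in N-si, the library where JAG2 was lowest. It was at most 0.000251 FPKM in the other libraries, and its effect on the level of JAG2 was not tested.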

How the data were processed

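The authors made mRNA libraries with the TruSeq kit and read 100 bp on a HiSeq 2000 (paired end in the methods, single end in the labels), and aligned them to hg19 with TopHat/Cufflinks and Ensembl annotations. Versions and the Ensembl release are not given in the sources used here. The deposited values are gene-level FPKM, 1 column per library. Starts in the table count from 0, and 1 was added.

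FPKM are not counts, so no count model was fitted. The 232 rows whose gene ID stands on several rows were left out. Depth was recovered from 4470 genes of 1 exon, where FPKM times depth times length less an offset is a whole number: 93.8% to 95.9% of low values came out whole within 0.05. Approximate reads used the canonical length in GENCODE v44lift37 less 214 bp. Intervals of ratios are exact (Clopper-Pearson) at 95%, and those of levels are exact Poisson. Both cover counting error only. The recovery of depth was checked on simulated whole counts of the genes of 1 exon. Python 3.11.15, pandas 2.3.3, NumPy 2.4.6 and SciPy 1.17.1 were used.

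The members, pathway lists and comparisons were chosen with earlier results of these data known. All members are named. A listed pathway gene is named when at least 2-fold changed in 1 of the 4 comparisons (at most 4 per list), or when it has the highest mean of its list. RBPJ, NOTCH4, DLL3 and DLL4 were named beside the rule, after their values were seen. The 3 genes nearest in pattern were taken for the member of widest range. Alternatives were another pseudocount or none, 3 scalings, no filter, and a minimum of 5 FPKM.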

Additional observations from a re-analysis of the deposited data

Results flagged for a closer look

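JAG1 and DLL1 differed in the direction of their TET1-si response between the oxygen states, with all 4 counting intervals clear of 0. The log2 change of JAG1 was 0.27 in hypoxic and -0.996 in normoxic cells. That of DLL1 was 0.10 in hypoxic and -0.74 in normoxic cells, and median-of-ratios scaling turned its value under hypoxia to -0.02. With 1 library per group the difference was not tested. No group had enough libraries to look for a deviating sample.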

How the results depend on the processing

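No paired analysis was possible because each group held 1 library, and for the same reason no replicate could be left out. Without a pseudocount, and with median-of-ratios or upper-quartile scaling, 1 member (JAG1) became at least 2-fold lower after TET1-si under normoxia, against 0 in the report; its log2 change ran from -1.16 to -0.89 over the alternatives. With log2(FPKM + 1), 2 members in place of 3 had a difference of hypoxia responses of at least 1, and NOTCH3 was lost. The 71 recomputed counts other than those of JAG1 stayed within 1.5 times those reported, and no member past 2-fold changed sign. Without a filter on expression, a setting added after seeing the data for the study's criteria, the members meeting them were still 0. For all genes, counts moved with the filter. In the order of the comparisons in the report (hypoxia in scrambled cells, hypoxia in TET1-si cells, TET1-si under hypoxia, TET1-si under normoxia, difference of hypoxia responses), 1937, 1883, 1807, 1828 and 734 genes were 2-fold higher, against 4517, 4803, 4226, 3699 and 3341 with no filter and 905, 823, 881, 892 and 269 at a minimum of 5 FPKM. Likewise 682, 1304, 1258, 837 and 1184 were lower, against 1654, 2333, 3083, 2299 and 3506, and 466, 1013, 789, 435 and 633. With log2(FPKM + 1), 1237, 1164 and 467 genes were higher for hypoxia in scrambled cells, TET1-si under normoxia and the difference. Median-of-ratios scaling moved the share of 2-fold changes after TET1-si under normoxia that were upward from 68.6% to 56.0%, and under hypoxia from 59.0% to 49.2%. Depth limits HEY1 and HES4, and the absence of replicates limits every result.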

Other observations

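HEYL and HES7, relatives of the targets described above, and NEURL1, which encodes a ligase that acts on Notch ligands, were below the minimum of 1 FPKM and were singled out after their values were seen. HEYL had 0.126 FPKM in normoxic and 0.306 in hypoxic scrambled cells, and 0.531 in normoxic and 0.914 in hypoxic TET1-si cells, on approximately 11, 29, 50 and 79 reads. It was 4.21-fold higher after TET1-si under normoxia and 2.98-fold higher under hypoxia, with counting intervals of the log2 ratio from 1.13 to 3.18 and from 0.94 to 2.24. HES7 was listed at 0 in both scrambled libraries and at 0.583 and 0.562 FPKM in N-si and H-si. NEURL1 was lower in both TET1-si libraries, at 1.19 and 0.638 FPKM in N-scr and H-scr and 0.173 and 0.110 in N-si and H-si.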
